A study of Rattus norvegicus with 6 samples.

Results

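The cell cycle and replication genes are a list of 45 genes given by symbol. Of these, 41 were measured in rat cultures, named in the labels as MNs (motor neurons), after a short treatment with camptothecin. A gene was taken as measured where a row of the deposited table, 29214 rows in all, carried its symbol and no other, and where a gene had several such rows the one with the highest mean over the arrays was used. Mcm3, Mcm4, Rbl1 and Mki67 had no such row and are not analysed here. The cultures were prepared from rat embryos at embryonic day 13.5, with no strain or genotype given in the labels, were kept for 2 days in vitro and received either 1 microM camptothecin or the same volume of its solvent, DMSO, for 2 h. Each treatment had 3 arrays (Affymetrix Rat Gene 1.0 ST), called biological replicates in the labels, which do not say whether the cultures came from separate embryos or litters, so the spread measured here is that between these samples.

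Camptothecin traps topoisomerase 1 on DNA, which blocks transcribing RNA polymerases and, in cells that copy their genome, breaks DNA at replication forks. Cells enter the cycle when D-type cyclins with CDK4 or CDK6, and then E-type cyclins with CDK2, phosphorylate the retinoblastoma family and release E2F transcription factors, which drive the genes for licensing and copying DNA. A-type and B-type cyclins with CDK1 carry the cell through G2 and mitosis. Neurons leave the cycle before they mature, and some of these genes are known to be switched on again in neurons with damaged DNA, while progenitor cells in the same dish would express them for division. On arrays of whole cultures, fewer cells of a type and less RNA per cell cannot be told apart.

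Levels are the deposited log2 values, and a change is camptothecin minus DMSO on that scale. Its standard error (SE) comes from limma, with n = 3 arrays in each treatment. A gene is said to have risen or fallen where limma's p-value, adjusted by the Benjamini-Hochberg method over all 29214 rows, was under 0.05. The camptothecin arrays had medians of 6.31 to 6.33 and the DMSO arrays 6.22 to 6.28, and the median change over all rows was 0.07. Rows with a mean under 6.28, the median over all rows, are called dim.

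Of the 41 measured genes 9 rose, 2 fell and 30 did not pass the test. Ccne1 had the largest rise and E2f3 the largest fall. The rises were Ccne1, Ccnd3, Pcna, Ccnd1, Cdc25a, Rrm2, Cdc6 and Mcm7, which act in G1, in the entry into S phase or in DNA copying, and E2f5, a repressive E2F factor. The falls were E2f3 and Rb1. The 10 cyclin, kinase and checkpoint genes of G2 and mitosis, none of them dim, held 0 calls by limma. Among all rows 18% were called, and among named genes that were not dim 31.9%. An unadjusted p under 0.05 was found for 2 of them, beside 9284 of the 29214 rows. The number of rises was 7 without camptothecin replicate 1, 4 without camptothecin replicate 2 and 4 without camptothecin replicate 3. It was 3 without DMSO replicate 1, 4 without DMSO replicate 2 and 3 without DMSO replicate 3, and the number of falls was 2 in each case. Ccne1, Ccnd3 and Pcna kept their call whichever array was left out. Over all rows the share higher, 10.1% with all 6 arrays, was 4.06% to 7.97% with 1 array left out. The share lower, 7.91% with all 6 arrays, was then 5.41% to 7.11%.

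The same counts over the whole table stand beside these. Among all rows 18% were called, 10.1% higher and 7.91% lower, against 26.8% of the 41 genes, 22% higher and 4.88% lower. Of the 41 genes 3 (E2f1, Orc1 and Cdc25c) were dim, against 14607 of the 29214 rows. Among the 8472 named genes that were not dim, 31.9% were called, 17.1% higher and 14.8% lower, beside 28.9% of the 38 members that were not dim, 23.7% higher and 5.26% lower. The median change of the 41 genes was 0.13, beside 0.07 for all rows, and 0.13 for the 38 beside 0.08 for named genes that were not dim. The arrays of the treatments did not overlap for 23 of the 41 genes, 16 with camptothecin above and 7 with camptothecin below. Over all rows that held for 37.5%, 24.5% above and 13% below, and for 59.9% of named genes that were not dim.

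**Figure D1:**
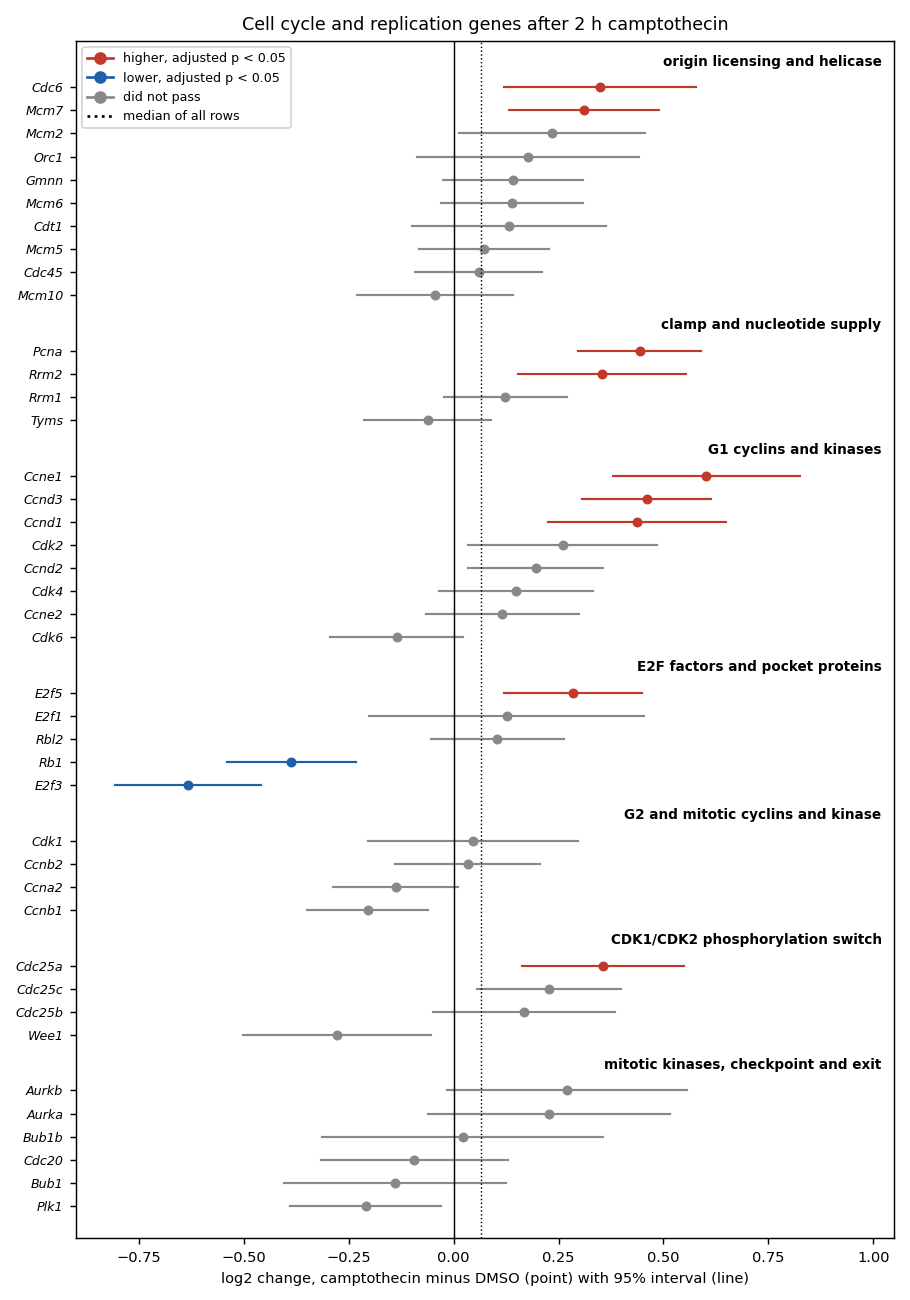
The log2 change (camptothecin minus DMSO, horizontal axis) of each of the 41 measured genes is drawn as a point with its 95% interval, grouped by role, with the median change of all rows (0.07) as a dotted line. The red points (9 rises) lie between 0.28 and 0.60 and the blue points are E2f3 (-0.63) and Rb1 (-0.39), while no gene of the G2 and mitotic groups is coloured.

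The G1 cyclins held 3 of the 9 rises, and their kinase partners held none. Ccne1, which encodes cyclin E1, the partner of CDK2 at the start of S phase, was at 7.79, 7.69 and 7.64 in camptothecin and at 7.28, 7.01 and 7.03 in DMSO. It rose 1.52-fold (log2 change 0.60, SE 0.09, adjusted p = 0.0066), and its 95% interval ran from 0.38 to 0.83. All camptothecin arrays lay above all DMSO arrays, and DMSO replicate 1 stood nearest to them.

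Ccnd3 and Ccnd1 encode D-type cyclins, which start the phosphorylation of the retinoblastoma family. Ccnd3 was at 7.16, 7.21 and 7.21 in camptothecin against 6.67, 6.74 and 6.78 in DMSO and rose 1.38-fold (0.46, SE 0.06, adjusted p = 0.00439). Ccnd1 was at 7.49, 7.74 and 7.60 against 7.10, 7.28 and 7.15 and rose 1.35-fold (0.44, SE 0.09, adjusted p = 0.0181). The groups were apart for both genes, with a tighter spread for Ccnd3 (SD 0.03 and 0.05) than for Ccnd1 (SD 0.12 and 0.09). The call of Ccnd1 was lost without camptothecin replicate 3 (0.44, adjusted p = 0.0534), DMSO replicate 1 (0.40, adjusted p = 0.0667) or DMSO replicate 3 (0.42, adjusted p = 0.0641).

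The third D-type cyclin gene, Ccnd2, changed by 0.20 (adjusted p = 0.0967, 95% interval 0.03 to 0.36) and did not pass, although its camptothecin arrays (8.34, 8.48 and 8.45) all lay above its DMSO arrays (8.20, 8.24 and 8.24). Ccne2, the second E-type cyclin gene, overlapped between treatments, at 8.81, 8.97 and 9.02 against 8.86, 8.81 and 8.78 (0.12, interval -0.07 to 0.30). Of the kinases, Cdk2 changed by 0.26 (adjusted p = 0.11), Cdk4 by 0.15 (0.245) and Cdk6 by -0.14 (0.22). Cdk6 was the G1 gene whose camptothecin arrays, 7.94, 7.86 and 7.97, all lay below the DMSO arrays at 8.01, 8.05 and 8.11.

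**Figure D2:**
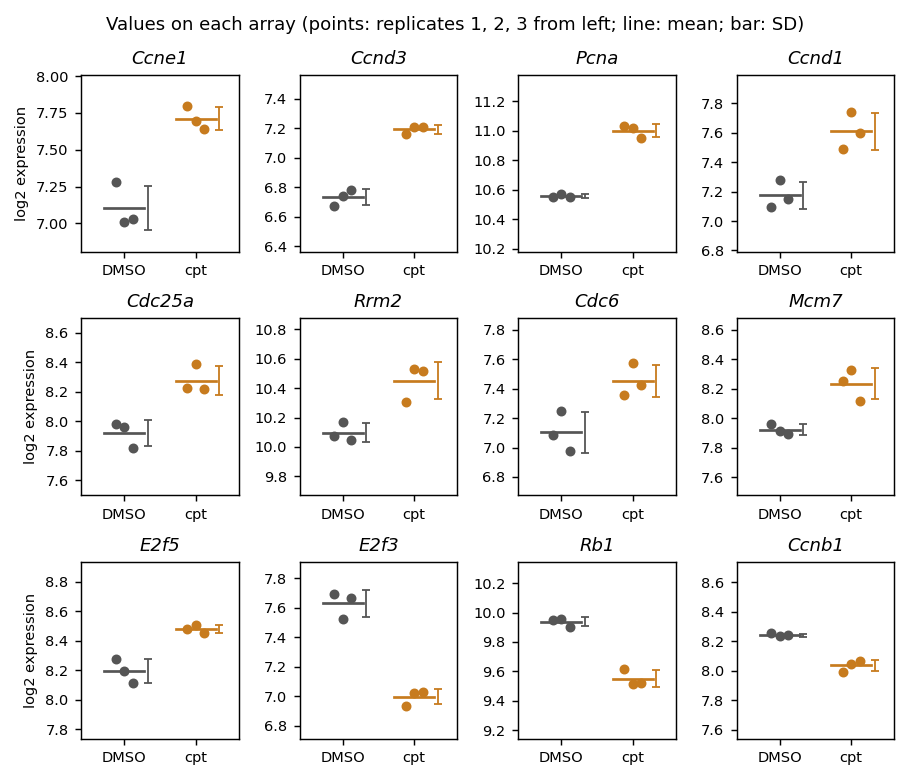
Each panel gives the log2 expression of 1 gene on the 3 DMSO and 3 camptothecin (cpt) arrays, as points for replicates 1 to 3 from the left, with the mean as a line and the SD as a bar, and every vertical axis spans the same distance. The groups are apart in all 12 panels, by the widest margin for E2f3, whose highest camptothecin array is at 7.03 and lowest DMSO array at 7.53. Ccnb1, shown last, did not pass the test.

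Of the 4 genes for the replication clamp and for making nucleotides, Pcna and Rrm2 rose. Pcna, the sliding clamp that holds DNA polymerases on the template and a known p53 target, was at 11.03, 11.02 and 10.95 in camptothecin against 10.55, 10.57 and 10.55 in DMSO. It rose 1.36-fold (0.44, SE 0.06, adjusted p = 0.00439), with an SD of 0.05 and 0.01 in the treatments, so the gap was larger than the spread between arrays.

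Rrm2, the small subunit of ribonucleotide reductase, which makes deoxynucleotides, was at 10.31, 10.53 and 10.51 against 10.07, 10.17 and 10.05 and rose 1.28-fold (0.35, SE 0.08, adjusted p = 0.0302). A further row of Rrm2 gave 0.36 (SE 0.07, adjusted p = 0.0155). The call of the first row was lost when any array but camptothecin replicate 1 was left out, that is without camptothecin replicate 2 (0.31), camptothecin replicate 3 (0.32), DMSO replicate 1 (0.34), DMSO replicate 2 (0.39) or DMSO replicate 3 (0.33), with adjusted p from 0.0624 to 0.0963. Rrm1, the large subunit of the same enzyme, was at 10.06, 10.15 and 10.13 in camptothecin and at 9.99 on each DMSO array. Its change of 0.12 did not pass (adjusted p = 0.229), nor did that of Tyms, thymidylate synthase (-0.06, interval -0.21 to 0.09).

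Among the 10 measured genes of origin licensing and the replicative helicase 2 rose, Cdc6 and Mcm7. Of the 10 changes 9 were above 0, beside 18680 of the 29214 over all rows and 30 of the 41 genes. Mcm7, a subunit of the MCM helicase ring, was at 8.26, 8.33 and 8.12 in camptothecin against 7.96, 7.91 and 7.89 in DMSO and rose 1.24-fold (0.31, SE 0.08, adjusted p = 0.0327). Cdc6, which loads that ring on origins, was at 7.36, 7.57 and 7.42 against 7.09, 7.25 and 6.97 and rose 1.27-fold (0.35, SE 0.10, adjusted p = 0.0484). Both genes had groups that did not overlap, and both calls lay near the threshold. That of Cdc6 was lost without any 1 of the 6 arrays (0.29 to 0.42, adjusted p = 0.0515 to 0.136). That of Mcm7 was lost without camptothecin replicate 1 (0.30) or 2 (0.26), or DMSO replicate 1 (0.33), 2 (0.31) or 3 (0.30), with adjusted p up to 0.102.

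The other 3 measured MCM ring genes gave 0.24 for Mcm2 (adjusted p = 0.137), 0.14 for Mcm6 (0.233) and 0.07 for Mcm5 (0.51). Mcm2 was at 7.93, 8.22 and 8.004 against 7.75, 7.80 and 7.90, so its groups did not overlap, whereas those of Mcm5 and Mcm6 did. Cdt1, which loads the ring together with Cdc6, changed by 0.13 (interval -0.10 to 0.36), and its inhibitor Gmnn, geminin, by 0.14 (interval -0.03 to 0.31). Orc1, the largest subunit of the origin recognition complex, gave 0.18 and was dim, Cdc45, a helicase cofactor, gave 0.06, and Mcm10, which acts when the helicase starts, gave -0.04.

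The E2F and retinoblastoma genes went both ways and held both falls. E2f3, an activating E2F factor, was at 6.94, 7.02 and 7.03 in camptothecin and at 7.69, 7.53 and 7.67 in DMSO. The log2 change was -0.63 (SE 0.07), a fall that passed the test (adjusted p = 0.00203), and the DMSO level was 1.55-fold that with camptothecin, the largest change of the 41 genes in either direction. Rb1, the retinoblastoma protein, which holds E2F factors inactive, was at 9.62, 9.51 and 9.52 against 9.95, 9.96 and 9.90. It fell by 0.39 (SE 0.07, adjusted p = 0.00874), with DMSO 1.31-fold higher.

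E2f5, a repressive E2F factor that works with retinoblastoma relatives, was at 8.48, 8.50 and 8.45 in camptothecin against 8.28, 8.20 and 8.11 in DMSO and rose 1.22-fold (0.28, SE 0.07, adjusted p = 0.033). Its other row overlapped between treatments and did not pass (0.18, SE 0.14, adjusted p = 0.455), and the call was lost when any 1 array was left out (0.24 to 0.33, adjusted p = 0.0527 to 0.103). Rbl2, a retinoblastoma relative of resting cells, changed by 0.10 (interval -0.05 to 0.26). E2f1 was dim, with DMSO arrays spread from 5.20 to 5.70, and its change of 0.13 had an interval from -0.20 to 0.45.

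The direct control of the cyclin-dependent kinases by phosphate held 1 rise. Cdc25a, a phosphatase that activates CDK2 and CDK1, was at 8.22, 8.39 and 8.22 in camptothecin against 7.98, 7.96 and 7.82 in DMSO and rose 1.28-fold (0.36, SE 0.08, adjusted p = 0.0265). That call was lost without camptothecin replicate 2 (0.30) or 3 (0.38), or DMSO replicate 1 (0.38), 2 (0.38) or 3 (0.31), with adjusted p from 0.0553 to 0.0851. Its relatives Cdc25c, which was dim (0.23, adjusted p = 0.0752), and Cdc25b (0.17, adjusted p = 0.266) did not pass.

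Wee1, the kinase that puts on the phosphate Cdc25 enzymes remove, was at 7.32, 7.35 and 7.55 against 7.78, 7.56 and 7.72. Its camptothecin arrays lay just below its DMSO arrays (log2 change -0.28, interval -0.50 to -0.06, adjusted p = 0.0891), and it did not pass as deposited.

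None of the 4 cyclin and kinase genes of G2 and mitosis passed the test. Ccnb1, cyclin B1, came nearest, at 7.99, 8.05 and 8.07 in camptothecin against 8.25, 8.23 and 8.24 in DMSO (-0.21, SE 0.06, interval -0.35 to -0.06, adjusted p = 0.0609). Its groups were apart, as were those of Ccna2, cyclin A2, at 8.04, 8.02 and 7.95 against 8.12, 8.17 and 8.14 (-0.14, adjusted p = 0.186). Ccnb2 changed by 0.03 (interval -0.14 to 0.21) and Cdk1, the mitotic kinase itself, by 0.05 (interval -0.20 to 0.30). For Cdk1 camptothecin replicate 2 stood at 7.26, above the other 5 arrays at 6.91 to 7.02.

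The 6 genes of mitotic kinases, the spindle checkpoint and mitotic exit did not pass either, with 3 changes above 0 and 3 below. Aurkb, a kinase of the chromosomal passenger complex, had the largest change, at 7.24, 7.69 and 7.57 in camptothecin against 7.16, 7.24 and 7.29 in DMSO (0.27, SE 0.12, interval -0.02 to 0.56, adjusted p = 0.178). Without camptothecin replicate 1 it passed (0.40, adjusted p = 0.0299). Aurka, a spindle pole kinase, gave 0.23 and the checkpoint kinase genes Bub1 and Bub1b gave -0.14 and 0.02, each with overlapping arrays.

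Plk1, a kinase of mitotic entry, was the member of this group whose treatments did not overlap, at 7.64, 7.74 and 7.58 against 7.95, 7.79 and 7.84 (-0.21, interval -0.39 to -0.03, adjusted p = 0.109). Cdc20, an activator of the anaphase-promoting complex, gave -0.09 (interval -0.32 to 0.13). In this group the SE reached 0.14 for Bub1b, whose camptothecin arrays spread from 7.20 to 7.76, against 0.06 for Pcna and Ccnd3.

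How many genes count as higher or lower depended on how the arrays were put on a common scale. Centring each array on its median moves every change by -0.07, and centring on the ribosomal protein genes by -0.24. With median centring 4 of the 41 genes were higher (Ccne1, Ccnd3, Pcna and Ccnd1) and 5 lower, beside 5.57% of all rows higher and 9.39% lower. The lower genes were E2f3, Rb1, Wee1 (-0.35, adjusted p = 0.0462), Plk1 (-0.28, adjusted p = 0.0491) and Ccnb1 (-0.27, adjusted p = 0.0284). With ribosomal centring 2 genes were higher, Ccne1 (0.36, adjusted p = 0.0342) and Ccnd3 (0.22, adjusted p = 0.0491), and 10 were lower, the same 5 with Ccna2, Bub1, Cdk6, Tyms and Mcm10. In that setting 2.31% of all rows were higher and 25% lower, so the falls of the 41 genes were near the share of the whole table.

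The directions of Ccne1, Ccnd3, Pcna, Ccnd1, E2f3 and Rb1 were the same under the 3 scalings. Pcna did not pass with ribosomal centring (0.20, adjusted p = 0.0506). With ribosomal centring the median change was -0.11 for the 41 genes and -0.18 for all rows. The calls of Ccne1, Ccnd3, E2f3 and Rb1 held in each of the 15 alternatives that were run, and that of Pcna in 14. Of the genes that did not pass as deposited, 12 passed in at least 1 alternative. Leaving out dim rows, after which 26.8% of the rows tested were higher and 17.6% lower, added Ccnd2 (adjusted p = 0.0326) and Cdk2 (0.0418) to the rises and Ccnb1 (0.0169), Wee1 (0.0317) and Plk1 (0.0392) to the falls, and array weights added Cdc25c (0.0496).

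**Figure D3:**
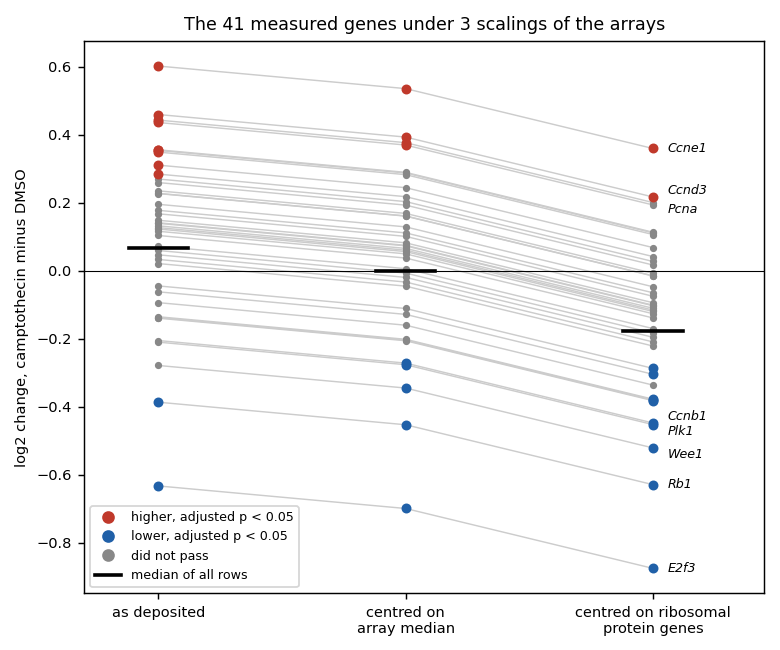
Each line joins the log2 change (vertical axis) of 1 of the 41 genes under 3 scalings of the arrays, with coloured points for genes past the threshold and a black bar at the median change of all rows. The order of the genes is the same in each column because a scaling moves all changes together, and the number of red points goes from 9 to 4 to 2 and of blue points from 2 to 5 to 10.

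Close relatives were also compared with each other for the size of their change. The within-array difference of 2 relatives was compared between treatments for 19 pairs with an exact two-sided permutation test. Its smallest possible p is 0.1 (adjusted over the pairs, 0.19), above the threshold used for limma, so no pair could pass. The 10 pairs that reached this p are those whose arrays did not overlap between treatments. Some genes are in several pairs, and how often unrelated genes give such a difference was not tested, so the differences are given as a description. Ccne1 changed by 0.49 more than Ccne2, and Rrm2 by 0.23 more than Rrm1. Ccnd1 changed by 0.24 more than Ccnd2, while Ccnd1 and Ccnd3 differed by 0.02 in size with overlapping arrays (exact p = 0.7). The difference of E2f3 from E2f5 was -0.92 and that of Rb1 from Rbl2 was -0.49, each with arrays of the treatments apart.

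Both genes that fell, E2f3 and Rb1, have long genomic spans. Annotated genomic spans in the rat assembly GRCr8 were matched for all 41 genes by gene identifier, with a median of 15.6 kb. Spans over 50 kb, a threshold chosen after the values were seen, belonged to Cdk6 (192.3 kb), Rb1 (131.1 kb), Ccnd3 (95.5 kb), E2f3 (77.4 kb) and Bub1b (52.5 kb). Of these 2 fell, Ccnd3 rose and 2 did not pass, and of the 36 shorter genes 8 rose and 0 fell. Spearman's rho of span and change was -0.27 over the 41 genes and -0.31 over 14480 named genes, values that share the same 6 arrays and are given as a description. Among all named genes of 50 kb or more 956 of 3369 fell and 103 rose, and among the 11111 shorter ones 400 fell and 1538 rose. Of the 56 related cell cycle genes under 50 kb 9 rose and 8 fell, and of the 14 of 50 kb or more 0 rose and 3 fell. Over these 70 genes Spearman's rho of span and change was -0.52.

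**Figure D4:**
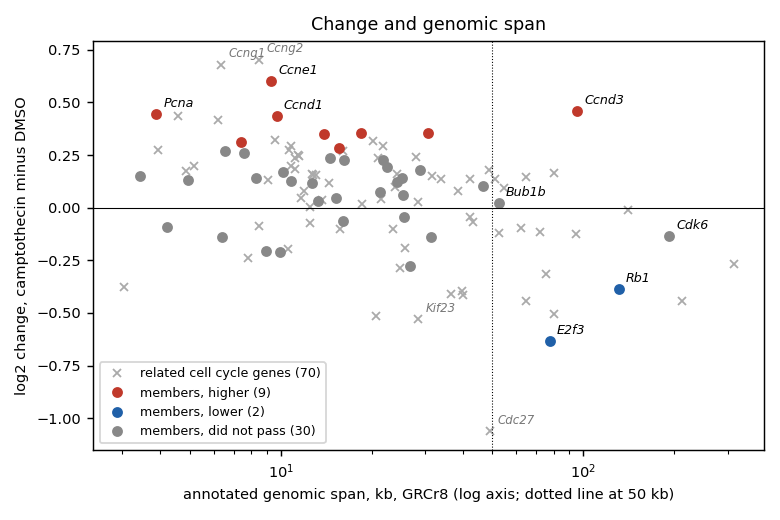
The log2 change (vertical axis) is plotted against the annotated genomic span in kb on a log axis for the 41 genes (circles) and 70 related cell cycle genes (crosses), with a dotted line at 50 kb. E2f3 and Rb1 lie to the right of that line and Ccnd3, at 95.5 kb and 0.46, lies to the right of it as well but above 0.

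Promoters of several of these genes share the motif that E2F factors are known to bind. RefSeq promoter windows (GRCr8) were matched for 29 of the 41 genes, and the 250 bases before each gene's start were searched on both strands for TTTNNCGC with each N read as C or G (E2F), for TTTGAA or TTCGAA (the CHR element of mitotic genes) and for CCAAT. The E2F letters were in 8 of the 29 windows (27.6%) against 1.81% of 27457 genes, CHR in 34.5% against 17.3% and CCAAT in 65.5% against 34.3%. E2F letters were in 2 of the 5 windows of genes that rose (Mcm7 and Cdc25a), in 1 of the 2 that fell (E2f3) and in 5 of the 22 that did not pass. A match is a description of the letters and does not show a bound site.

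The windows of 5 genes follow, 5′ to 3′ on the gene's own strand and ending 1 base before the start, with the matches in capitals. They are the gene with the largest rise (Ccne1, chr1:99927910-99928159, minus strand), which holds 0 matches in this window, the genes that rose with an E2F match (Mcm7, chr12:22163179-22163428, minus strand, and Cdc25a, chr8:118742798-118743047, plus strand), the gene that fell with one (E2f3, chr17:34810166-34810415, plus strand) and a mitotic kinase gene that did not pass (Cdk1, chr20:19265043-19265292, plus strand). Cdk1 was picked from several mitotic kinase genes that did not pass. Of the others with a window, Aurka and Bub1 held 0 matches, Plk1 held 1 CCAAT match and Bub1b 1 CHR match. E2F letters were in 0 of the 5 windows of the mitotic kinase, checkpoint and exit genes.
Ccne1: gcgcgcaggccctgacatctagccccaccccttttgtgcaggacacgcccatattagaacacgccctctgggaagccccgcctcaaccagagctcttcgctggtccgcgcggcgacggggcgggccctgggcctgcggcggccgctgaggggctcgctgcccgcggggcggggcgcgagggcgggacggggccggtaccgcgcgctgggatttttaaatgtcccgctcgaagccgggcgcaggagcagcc
Mcm7: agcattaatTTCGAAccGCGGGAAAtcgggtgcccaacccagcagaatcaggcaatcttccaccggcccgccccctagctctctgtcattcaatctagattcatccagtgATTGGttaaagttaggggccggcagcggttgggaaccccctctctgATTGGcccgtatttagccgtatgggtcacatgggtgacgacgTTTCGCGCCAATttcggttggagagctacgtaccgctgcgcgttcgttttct
Cdc25a: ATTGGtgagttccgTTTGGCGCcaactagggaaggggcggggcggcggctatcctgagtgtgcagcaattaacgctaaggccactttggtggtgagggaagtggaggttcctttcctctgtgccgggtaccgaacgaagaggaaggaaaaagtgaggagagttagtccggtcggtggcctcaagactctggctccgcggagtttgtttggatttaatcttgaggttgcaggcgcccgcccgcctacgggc
E2f3: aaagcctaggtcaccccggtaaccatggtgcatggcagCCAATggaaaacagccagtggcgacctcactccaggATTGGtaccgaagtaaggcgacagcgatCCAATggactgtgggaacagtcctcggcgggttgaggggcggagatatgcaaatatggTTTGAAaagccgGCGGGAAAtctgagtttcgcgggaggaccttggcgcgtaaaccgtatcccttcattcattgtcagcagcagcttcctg
Cdk1: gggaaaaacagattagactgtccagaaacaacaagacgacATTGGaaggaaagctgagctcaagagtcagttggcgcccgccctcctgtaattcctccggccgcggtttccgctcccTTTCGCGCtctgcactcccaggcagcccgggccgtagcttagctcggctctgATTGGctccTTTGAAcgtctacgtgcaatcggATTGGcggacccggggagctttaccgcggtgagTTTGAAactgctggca
The E2F matches start 233 and 52 bases before the start in Mcm7, where the nearer one shares 1 base with a CCAAT match, 236 bases in Cdc25a, 78 in E2f3 and 133 in Cdk1. Cdk1, whose level changed by 0.05, thus carries E2F, CHR and CCAAT letters together, as do Mcm7, which rose, and E2f3, which fell.

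Related cell cycle genes outside the 45 were described through a further list of 85, of which 70 were measured. Of these 9 rose (12.9%) and 11 fell (15.7%), and the median change was 0.09. The largest rises were Ccng2 (0.70, SE 0.10) and Ccng1 (0.68, SE 0.06), which encode G-type cyclins, Ccng1 being a known p53 target. Next came Cks1b, a small binding partner of cyclin-dependent kinases (0.44, SE 0.08), whose call was lost without DMSO replicate 1 (0.43, adjusted p = 0.0517) or DMSO replicate 3 (0.39, adjusted p = 0.0518). Ccng1 was at 11.32, 11.35 and 11.37 in camptothecin against 10.63, 10.65 and 10.71 in DMSO (adjusted p = 0.00072).

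The largest fall was that of Cdc27, a subunit of the anaphase-promoting complex, at 8.99, 8.999 and 8.89 in camptothecin against 10.06, 10.03 and 9.97 in DMSO. It fell by 1.06 (SE 0.07, adjusted p = 0.000142), more than any of the 41 genes, so DMSO was 2.09-fold higher. Kif23, a kinesin of cell division (-0.53, SE 0.06), and Ccnh, cyclin H of the CDK-activating kinase (-0.51, SE 0.06), came next, and Cdk7, the kinase that Ccnh activates, fell as well.

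DNA copying genes on this list went both ways. Among 18 genes of the DNA polymerases, primase and clamp loading 3 rose (Pold2, Rfc3 and Rfc5) and 3 fell (Prim2, Pold3 and Rpa3), and of 10 licensing genes Cdc7 rose and Orc2 and Orc5 fell. Lin54, a subunit of the DREAM complex that represses cell cycle genes in resting cells, fell by 0.51, and the other 6 measured E2F and DREAM genes of the list did not pass. Of 22 spindle and mitotic exit genes 2 rose (Prc1 and Pttg1) and 3 fell (Cdc27, Kif23 and Ttk). Without 1 array the rises of this list numbered 6 without camptothecin replicate 1, 4 without camptothecin replicate 2, 3 in turn without camptothecin replicate 3, the first DMSO array or the second, and 2 without the third DMSO array. The falls numbered 7 without DMSO replicate 1 or DMSO replicate 3.

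Markers of the cells that could carry these transcripts are given beside the counts. Of 12 measured neural progenitor and glial markers Msi1 rose (0.53) and Pax6 fell (-0.58), with a median change of 0.11, and their mean log2 level was 8.19 to 8.36 on the camptothecin arrays and 8.19 to 8.20 on the DMSO arrays. The highest of these, on camptothecin replicate 3, includes Prom1 at 9.89, which was at 8.62 and 8.78 on the other camptothecin arrays. Of 9 measured motor neuron markers 3 rose (Nefh, Nefm and Prph) and 0 fell, and 5 were dim (Isl1, Isl2, Slc18a3, Slc5a7 and Prph), while Mnx1 and Chat had no row of their own and are not analysed here. The changes that did not pass were -0.34 for Slc5a7, -0.27 for Isl1, -0.11 for Slc18a3, 0.02 for Lhx3, 0.09 for Isl2 and 0.14 for Nefl. The mean log2 level of these markers was 6.97 to 7.13 on the camptothecin arrays and 6.93 to 6.96 on the DMSO arrays. Of 8 spinal interneuron markers 5 fell and 0 rose, with mean levels of 8.19 to 8.32 against 8.66 to 8.78. The falls were Slc6a5 (-1.79), Gad2 (-0.99), Slc17a6 (-0.80), Gad1 (-0.57) and Pax2 (-0.25), with annotated spans of 40.05 to 91.18 kb. Lhx5 (0.26), Slc32a1 (0.23) and Lhx1 (0.10), with spans of 4.47 to 8.44 kb, changed upward and did not pass, so the list did not fall as a whole. Of 8 fibroblast markers 1 fell. Of 9 endothelial, blood and microglial markers 0 were called by limma, with 2 at an unadjusted p under 0.05, beside 9284 of the 29214 rows. The part of any of these cells in the changes of the cell cycle genes was not tested.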

How the data were processed

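Total RNA of 6 cultures was labelled from 1 microg each and hybridised to whole-transcript arrays. The authors deposited log2 expression values, 1 per row and array; RMA and the oligo package are named in the submitters' processing notes, their versions, the annotation and the build being not given in the sources used here. Probe signals over background were not used here, so a dim row cannot be told from an absent transcript, and precision is limited by having 6 arrays. The platform annotation gave 1 symbol to 15310 rows, several to 323 and none to 13581. The values were tested as deposited with limma 3.58.1 in R 4.3.3 (lmFit and eBayes, camptothecin minus DMSO, two-sided, no covariates), with p-values adjusted over all 29214 rows. The fit was tested on simulated data. Arrays of a treatment correlated at 0.992 to 0.995 and shared 19 to 34 exactly equal values (tolerance 0), so none was a copy. Same-numbered arrays of the treatments did not deviate together (r -0.08, 0.02 and 0.08), so the numbers were not taken as pairs. The members and lists were chosen with earlier results of these data known. Array values are printed for members past the threshold and for the member with the largest change in a role group with none; members whose call moved with a setting are named, and array values of other members were chosen for print after they were seen. For the further list of 85 genes, up to 3 rises and 3 falls with the largest change are described, and the other genes past the threshold are named after their values were seen. Alternatives were quantile normalization again, centring on array medians or on 266 rows of ribosomal protein symbols (79 symbols, 6 of them Rps6k kinases), leaving out dim rows, the replicate block, a trended and robust eBayes fit, weights for arrays, each array left out in turn, a threshold of 0.01 and the mean over the rows of a gene.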

Additional observations from a re-analysis of the deposited data

How the results depend on the processing

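Of the 11 calls among the 41 genes 4 held in all 15 alternatives, 7 were lost in at least 1, and 0 were called in the opposite direction. The 9 rises became 4 with median centring, 2 with ribosomal centring, 4 with the replicate block, 3 at a threshold of 0.01 and 3 to 7 with 1 array left out. The 2 falls became 5 with median centring, 10 with ribosomal centring and 5 without dim rows, and numbered 2 whichever array was left out. Over all rows tested the share lower was 7.91% as deposited, 9.39% with median centring, 25% with ribosomal centring and 17.6% without dim rows, and the share higher was 10.1%, 5.57%, 2.31% and 26.8%. With the replicate block 5.74% of all rows were higher and 6.14% lower, and at a threshold of 0.01 2.56% and 4.72%. With 1 array left out 4.06% to 7.97% were higher and 5.41% to 7.11% lower. The median change of the 41 genes, 0.13, became -0.11 after ribosomal centring and lay between 0.10 and 0.17 when 1 array was left out. In the further list of 70 measured genes, the 9 rises became 3 with median centring, 2 with ribosomal centring, 14 without dim rows, 3 with the replicate block, 2 at a threshold of 0.01 and 2 to 6 with 1 array left out. The 11 falls became 28 with ribosomal centring, 6 at a threshold of 0.01 and 7 to 9 with 1 array left out. Fewer rows are tested without dim rows and fewer arrays with 1 left out. The threshold of 0.01 is a stricter cut on the same fit, and each centring moves all changes by the same amount. For the remaining settings the cause was not tested. The replicate block, whose numbers are not said in the labels to pair the arrays, kept the calls of Ccne1, Ccnd3, Pcna, Ccnd1, E2f3 and Rb1.

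Some changes crossed 0 under another setting. The centrings move all genes alike, by -0.07 and -0.24, so which genes cross 0 there follows from the size of the deposited change. With quantile normalization again Cdc45 was at -0.0048, Cdk1 at -0.0086 and Bub1b at -0.0066. With median centring Cdc45 was at -0.0068, Ccnb2 at -0.033, Cdk1 at -0.019 and Bub1b at -0.045. With array weights Cdk1 was at -0.0023 and Bub1b at -0.083. With ribosomal centring the values were -0.0074 for Mcm2, -0.17 for Mcm5, -0.10 for Mcm6, -0.18 for Cdc45, -0.11 for Cdt1, -0.065 for Orc1, -0.10 for Gmnn, -0.12 for Rrm1, -0.047 for Ccnd2, -0.13 for Ccne2, -0.094 for Cdk4, -0.12 for E2f1, -0.14 for Rbl2, -0.21 for Ccnb2, -0.20 for Cdk1, -0.075 for Cdc25b, -0.015 for Cdc25c, -0.015 for Aurka and -0.22 for Bub1b. With 1 array left out the range was -0.090 to 0.0056 for Mcm10, -0.0020 to 0.073 for Ccnb2, -0.068 to 0.11 for Cdk1, -0.11 to 0.17 for Bub1b and -0.021 to 0.23 for E2f1.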

Other observations

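Camptothecin replicate 2 tended to carry the highest level of its treatment. It was the highest of the 3 camptothecin arrays for 23 of the 41 genes, where camptothecin replicate 1 was highest for 10 and camptothecin replicate 3 for 8. Its median deviation from the camptothecin mean was 0.05 over the 41 genes, 0.05 over the 70 related genes and 0.02 over all rows. It lay above that mean for 32 of the 41 genes and for 16905 of the 29214 rows. The 6 mitotic kinase, checkpoint and exit genes showed this most, with 5 of 6 highest in that array and a median deviation of 0.17, beside -0.13 in camptothecin replicate 3. The DMSO arrays were highest for 16, 15 and 10 of the 41 genes. Neural progenitor and glial markers were highest in camptothecin replicate 2 for 7 of 12 genes and in camptothecin replicate 3 for 5. Camptothecin replicate 2 was also highest for 38 of the 70 related cell cycle genes, 7 of 9 motor neuron and 5 of 8 spinal interneuron markers. For fibroblast markers it was highest in 4 of 8, and for endothelial, blood and microglial markers in 4 of 9.

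The 2 rows of Ccnb2 held the same mean (7.93), change (0.03) and SE (0.07), so they count as 1 measurement. The 2 rows of Rrm1 differed in brightness, with means of 10.05 and 4.65, and gave changes of 0.12 and 0.15.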
